A study of Mus musculus with 12 samples.

Results

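The microRNAs (miRNAs) of the imprinted Dlk1-Dio3 region were examined as a group in primary lung endothelial cells of mice. Members were chosen by assay name only: every mouse assay of the array whose number belongs to the miRNA clusters of this region was taken, which gave 47 of the 335 mouse miRNA assays. No measured value entered this rule, but the members were chosen with earlier results of these data known. Endothelial cells, the cells that line the vessel wall, had been isolated from lungs of male wild type C57BL/6N mice of 6 to 10 weeks, 3 mice for each isolation, with beads against CD144 and then CD31. The cultures were left unstimulated (control) or were given Tri-DAP, a ligand of the peptidoglycan receptor NOD1 (TD in the sample labels), or MDP, a ligand of NOD2, each at 10 μg/mL for 6 h. RNA of 4 isolations per condition was run on TaqMan low-density arrays (TLDA), so that each group held 4 arrays. An array is named here by its group and label number, for example control 4 or MDP 6. The readout was the Ct, the PCR cycle at which a well crossed its detection threshold. A Ct that is lower by 1 cycle stands for about 1 log2 unit more template, and 40 was the value of a well in which no signal was determined. The limit of this material as a model is that cultured cells from pooled mice were measured, and that neither labels nor methods state which arrays shared an isolation.

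The Dlk1-Dio3 region is imprinted, which means that a gene is read from the chromosome of only the mother or only the father. Its protein-coding genes (Dlk1, Rtl1, Dio3) are read from the paternal copy, whereas the long non-coding RNAs and the miRNA clusters that lie in them are read from the maternal copy. The hairpins are thought to be cut from long shared transcripts (Meg3, the Rtl1 antisense transcript and Mirg), are abundant in embryo, placenta and brain, and are low in most adult tissues. The members were therefore grouped by their place: 7 assays before the Rtl1 antisense group, 6 assays in that group, whose hairpins lie opposite the Rtl1 gene, 1 assay (miR-370) between, and 33 assays in the large distal group in Mirg.

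Mature sequences of 45 of the 47 members were matched in the RefSeq table for the mouse build GRCm38.p6. They all lay on the plus strand of chromosome 12 between 109563744 and 109743784, a span of 180.04 kb, and the order of the position groups held along it. miR-376c and miR-487b were not matched. For 30 members the array gives an older name without an arm, and the arm was taken from the common use of that name. The sequences of the members on which the results below turn are shown 5′ to 3′ in the order of the locus, with bases 2 to 8 (the seed, which pairs with target mRNAs) in capitals:
miR-337-5p: cGGCGUCAugcaggaguugauu
miR-337-3p: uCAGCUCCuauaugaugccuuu
miR-431-5p: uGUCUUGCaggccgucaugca
miR-127-3p: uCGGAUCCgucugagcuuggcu
miR-434-5p: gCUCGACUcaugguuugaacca
miR-434-3p: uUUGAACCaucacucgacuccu
miR-379-5p: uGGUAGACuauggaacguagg
miR-411-5p: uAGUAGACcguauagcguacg
miR-494-3p: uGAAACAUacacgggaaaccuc
miR-543-3p: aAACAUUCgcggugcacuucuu
miR-495-3p: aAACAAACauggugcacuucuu
miR-667-3p: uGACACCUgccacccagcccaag
miR-134-5p: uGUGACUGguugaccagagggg
miR-496a-3p: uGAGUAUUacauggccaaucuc
miR-409-3p: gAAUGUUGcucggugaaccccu

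The 45 matched members carried 45 different seeds, so that no member shared its bases 2 to 8 with another one. miR-379 and miR-411, neighbours in the locus, shared guagac at bases 3 to 8. miR-495 and miR-543, also near each other, differed in the seed but ended in the same 12 bases, ggugcacuucuu.

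The cluster was measured, but late and in part. Of the 47 members, 16 (34.0%) had a Ct below 40 on all 12 arrays, 24 (51.1%) on 1 to 11 arrays, and 7 (14.9%) on none. Among the 288 other mouse assays, 150 (52.1%) were measured on all arrays, 100 (34.7%) on some and 38 (13.2%) on none. Thus the share never measured was near that of the other miRNAs, while more members were measured on some arrays only. In wells, 318 of 564 (56.4%) gave a Ct for the cluster against 2402 of 3456 (69.5%) for the other mouse miRNAs. By group, the cluster had 109 measured wells of 188 in control cells, 104 in Tri-DAP and 105 in MDP. The number of members measured per array ran from 23 (control 10 and MDP 6) to 29 (control 7, control 13, Tri-DAP 14 and MDP 9), so that each group held both low and high arrays. The median of the members' mean Ct was 32.6, compared to 29.99 for the other mouse miRNAs, and for those on all 12 arrays 31.2 against 28.4. The negative control assay from a plant was undetermined on all arrays.

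By position, 2 of 7 assays before the Rtl1 antisense group, 3 of 6 in that group and 11 of 33 in the Mirg group were measured on all 12 arrays. The members without any measured well were miR-154, miR-377, miR-453, miR-654-5p, miR-668 and miR-679 of the Mirg group and miR-540-5p before the Rtl1 antisense group. miR-770-3p (Ct 30.9) and miR-380-3p (Ct 31.9) were measured once, both on Tri-DAP 8, and miR-493 once, on Tri-DAP 5 (Ct 35.4). These single wells have no replicate. Of the other members measured in part, miR-666-5p and miR-376b were measured on 11 arrays, and the remainder on 2 to 9 arrays with mean Ct from 24.1 (miR-496) to 35.7 (miR-381). miR-323-3p was measured on 3 control arrays, 1 Tri-DAP array and 4 MDP arrays, and miR-136 on 4, 1 and 3. miR-329 was measured on 2 control arrays only (Ct 32.4 and 33.5). For comparison, all 9 assays of the miR-17-92 and miR-106b-25 clusters, a set of oncogenic miRNAs read in most dividing cells, were measured on all 12 arrays, their mean Ct lying between 22.4 and 31.2. Of 10 assays of the Sfmbt2-intron group, a further imprinted mouse cluster, 3 were measured on all arrays and 1 on none.

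**Figure D1:**
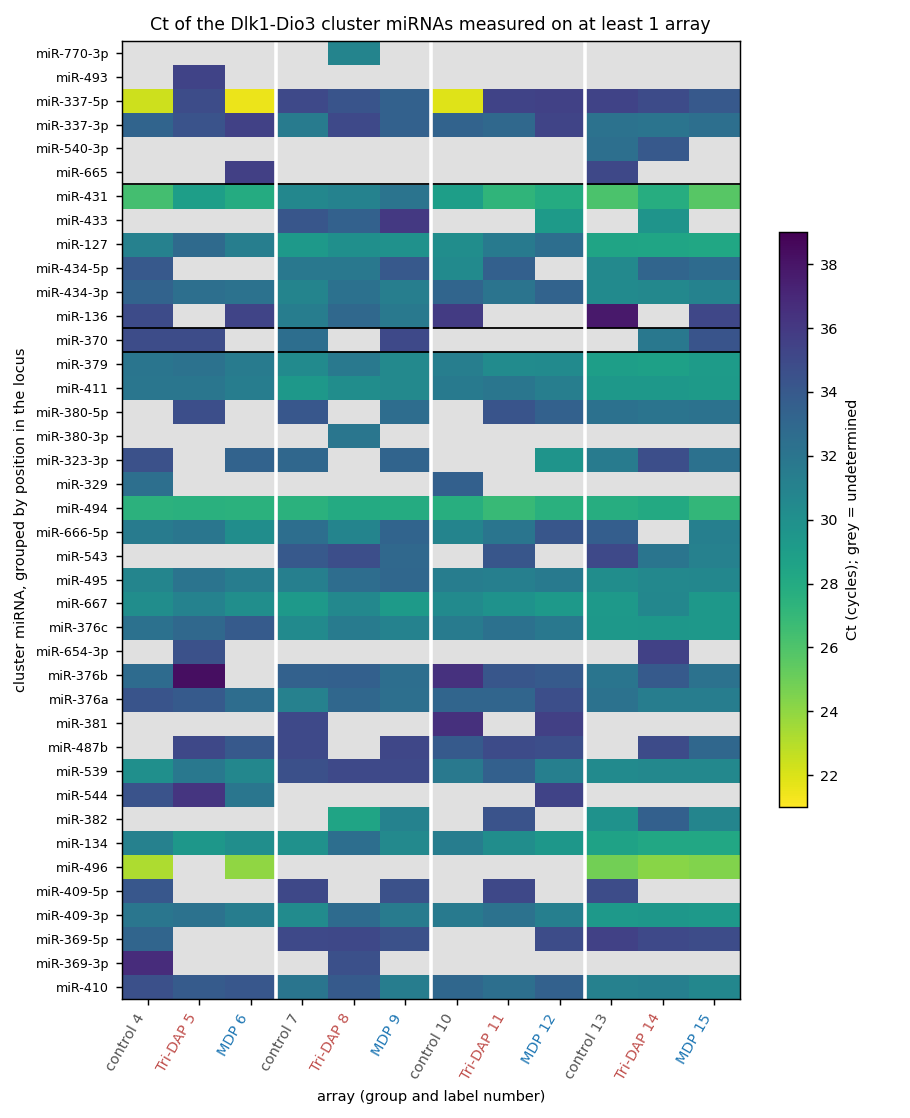
Ct of the 40 cluster miRNAs measured on at least 1 array (rows, in the order of the locus, with black lines between position groups) on each of the 12 arrays (columns, in the order of the label numbers, names coloured by group). Light colours are early Ct and grey is undetermined. miR-494 was measured at a nearly even Ct, most other members were earlier on control 13, Tri-DAP 14 and MDP 15, and miR-337-5p and miR-496 had a few very early wells.

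The earliest member measured on all 12 arrays was miR-494 of the Mirg group, with Ct 27.4, 27.5, 27.7 and 27.8 on control 4, 7, 10 and 13. In Tri-DAP it had Ct 27.6, 28.0, 26.9 and 28.1, and in MDP 27.5, 27.9, 27.6 and 27.1. It was also the most even member, with an SD of 0.350 cycles over the 12 arrays. The next, miR-431 of the Rtl1 antisense group, had Ct 26.4, 30.7, 28.9 and 26.1 in control, 28.9, 31.0, 27.2 and 27.8 in Tri-DAP, and 27.9, 32.1, 27.9 and 25.7 in MDP. In each group its latest array was the one numbered 7, 8 or 9, and its SD was 2.01 cycles. It was followed by miR-667 (mean Ct 29.95, SD 0.637), miR-134 (29.99, SD 1.29), miR-127 (30.3, SD 1.54), miR-379 (30.6, SD 1.18), miR-411 (30.7, SD 1.10) and miR-409-3p (31.1, SD 1.18). Assays differ in their efficiency, so the order of members is an order of Ct and not of copy number.

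For most members the arrays differed more by label number than by treatment. When the arrays were put into sets of 3 with consecutive numbers, each set holding 1 control, 1 Tri-DAP and 1 MDP array, most members were earliest on the last set. miR-379 had Ct 32.0, 32.2 and 31.5 on arrays 4 (control), 5 (Tri-DAP) and 6 (MDP), 30.4, 31.7 and 30.5 on arrays 7 to 9, 31.3, 30.3 and 30.4 on arrays 10 to 12, and 28.9, 28.8 and 29.1 on arrays 13 to 15. All 3 last arrays were below the other 9. The neighbouring miR-411 gave 31.9, 31.9 and 31.4, then 29.4, 30.2 and 30.5, then 31.6, 31.9 and 31.3, and at last 29.4, 29.4 and 29.2 in the same order of arrays. miR-127, upstream in the Rtl1 antisense group, gave 31.1, 32.8 and 31.3, then 29.3, 29.96 and 29.9, then 30.2, 31.6 and 32.5, and 28.5, 28.4 and 28.3. Among the 16 members measured on all arrays, 13 (81.2%) had their lowest mean Ct in the last set, compared to 66 of 158 (41.8%) other miRNA assays measured on all arrays, rat-sequence assays included. These counts are on the Ct scale. Relative to all miRNAs the last set was highest for 9 of 16 (56.2%) against 31 of 158 (19.6%), and relative to U6 for 7 (43.8%) against 26 (16.5%). On the Ct scale, for 7 of the 16 (43.8%) every array of the last set lay below every other array, against 20 of the 158 (12.7%). In Ct, the sets accounted for a median of 76.8% of a member's sum of squares over the arrays (64.7% for the others) and the treatment groups for 4.71% (3.25% for the others). Relative to U6 the medians were 71.7% and 5.25% (50.4% and 2.76% for the others). In Ct, miR-667 was an exception, with 21.3% for the sets and 48.3% for the groups. That consecutive numbers belong together is not stated by labels or methods.

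The other sets had no common order. miR-431 and miR-539 were latest on arrays 7, 8 and 9, with set means of 31.3 and 34.8 cycles there against 26.5 and 30.6 on the last set. For miR-539 the 3 arrays had Ct 34.6, 35.01 and 34.98. miR-494 and miR-667 had set means within 0.406 and 0.713 cycles of each other, whereas for miR-376c they spanned 3.55 cycles. The latest set was that of arrays 4, 5 and 6 for 9 members and that of arrays 7, 8 and 9 for 5, whereas of the 158 other miRNAs 99 were latest on arrays 7, 8 and 9.

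The mean Ct of 15 members (those on all arrays except miR-337-5p, whose wells are given further on) was 31.4, 31.8 and 31.4 on arrays 4, 5 and 6, and 30.6, 32.0 and 31.3 on arrays 7, 8 and 9. It was 31.3, 31.2 and 31.4 on arrays 10, 11 and 12, and 29.6, 29.8 and 29.5 on arrays 13, 14 and 15. In Ct the last 3 arrays were thus lowest and lay close together. Relative to U6 they did not: control 13, Tri-DAP 14 and MDP 15 were at -10.15, -11.51 and -9.80 log2 units, and Tri-DAP 14 lay below Tri-DAP 8 (-10.39), control 7 (-10.53), MDP 6 (-11.22) and MDP 9 (-11.30). The 158 other miRNAs had set means of 28.5, 29.1, 28.2 and 28.1 cycles in the same order of sets. By group the mean of the 15 members was 30.7 ± 0.833 (SD, n = 4) in control, 31.2 ± 0.999 in Tri-DAP and 30.9 ± 0.937 in MDP, with overlapping arrays.

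Markers of other cell types were read beside this. The endothelial miR-126-3p and miR-126-5p had Ct between 18.6 and 22.4 on all arrays, so the labelled cell type was present throughout, and their joint mean was latest on the last set (21.4, against 20.3, 20.5 and 19.9). Of 6 fibroblast and mural markers, which are made by the connective tissue and muscle cells around vessels, 5 were on the array and 4 were measured on all arrays (miR-143, miR-145, miR-199a-3p and miR-214). Their mean Ct was 28.2 to 28.8 on arrays 4 to 6, 30.4 to 30.7 on arrays 7 to 9, 26.6 to 27.1 on arrays 10 to 12 and 23.9 to 24.2 on arrays 13 to 15. miR-145, an abundant miRNA of smooth muscle, had Ct 23.1, 23.4 and 23.5 on the last set and 33.1, 31.8 and 32.5 on arrays 7, 8 and 9. The set with the earliest cluster was therefore also the set with the earliest fibroblast and mural markers in Ct. From arrays 4 to 6 to arrays 7 to 9 the mean of the markers was later, as were 6 of the 16 members (miR-431, miR-539, miR-495, miR-134, miR-494 and miR-337-5p) and 86.1% of the 158 other miRNAs, while the remaining 10 members were earlier. The 4 markers had almost equal means in the groups (Ct 27.5 in control, 27.4 in Tri-DAP and 27.6 in MDP). Of 7 epithelial markers, 2 were measured throughout, at 32.5, 34.1, 31.1 and 30.7 over the 4 sets, so their mean too was earliest on the last set. By the mean of their measured wells, miR-141, miR-200a, miR-200b, miR-200c and miR-429 were each earliest there, at 28.4 to 30.9. miR-203 was earliest on arrays 10 to 12 (32.1, against 32.9 on the last set), and miR-205 was measured on 1 array. The 3 leukocyte markers of 5 that were measured on all arrays had set means of 28.9, 29.2, 28.5 and 28.8, and miR-142-5p was undetermined on 10 arrays. The red cell markers miR-451 and miR-486 were measured on 3 and 2 arrays. The 3 neuronal markers were measured throughout, with set means between 31.5 and 31.7. The part of these cells in the cluster's values was not tested, and in RNA of whole cultures fewer cells of a type and less RNA per cell cannot be told apart.

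**Figure D2:**
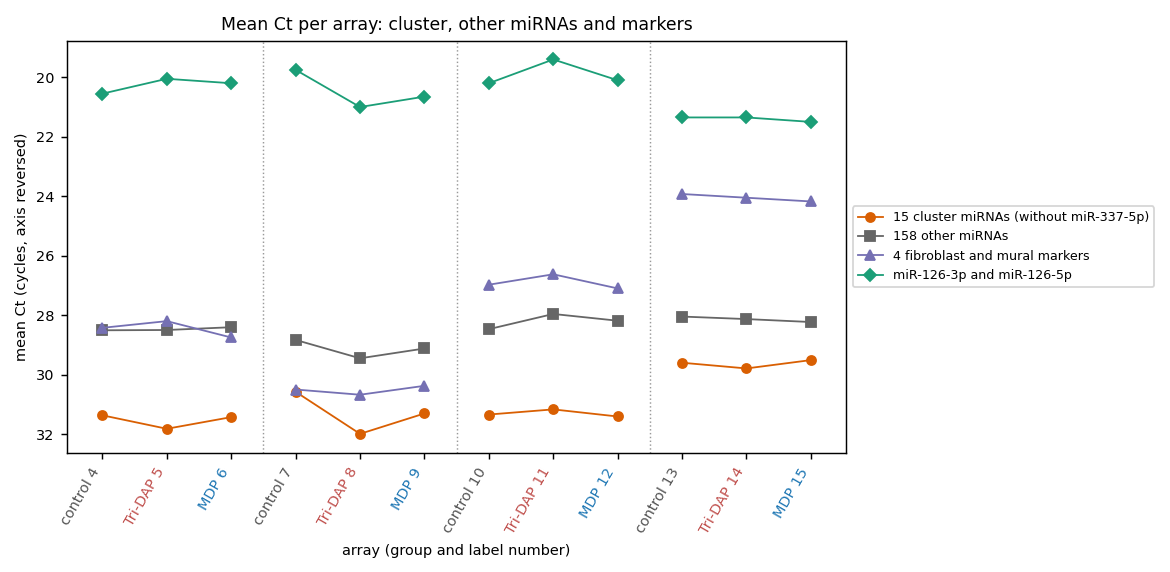
Mean Ct per array (vertical axis, reversed so that more template is higher) of 15 cluster miRNAs, 158 other miRNAs, 4 fibroblast and mural markers and the 2 arms of miR-126, over the 12 arrays in the order of their label numbers. Dotted lines separate sets of 3 consecutive numbers. The cluster sits at 29.5 to 29.8 on arrays 13 to 15 and at 30.6 to 32.0 elsewhere, and the markers of fibroblasts and mural cells at 23.9 to 24.2 and at 26.6 to 30.7.

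Joint variation was described by the correlation of each pair of members over the 12 arrays after the group means were removed. Pairs share arrays and reference, so no test was made. Relative to the small RNA U6, the reference of the deposited values, the median Pearson r over 120 pairs of 16 members was 0.54, and 93 pairs (77.5%) were above 0. Pairs of the 158 other miRNAs had a median of 0.52, so with this reference the cluster's pairs were close to pairs of others. A member and another miRNA had a lower median, 0.31. Because a reference moves every miRNA of an array alike, the mean of all miRNAs measured on all arrays was used as a second reference. With it the median was 0.33 for the cluster, 0.03 for pairs of others and -0.05 for a member and another miRNA. It was 0.03 in the cluster and 0.06 in the others once the means of the array sets were removed too, an alternative chosen after the data were seen. With U6 and without the set means it was 0.49 in the cluster and 0.74 in the others. Thus, relative to all miRNAs, the members varied together between the sets of arrays more than within them. With the same second reference, the 4 fibroblast and mural markers had a median of 0.97 and the 9 assays of the miR-17-92 and miR-106b-25 clusters 0.70.

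Within the cluster, the highest pair was miR-127 and miR-411 (r = 0.90 with the second reference), from 2 different position groups, followed by miR-376a and miR-434-3p (0.90), also from 2 groups, and miR-379 and miR-410 (0.90) toward either end of the Mirg group. The median was 0.42 for 55 pairs in the Mirg group and 0.36 for 33 pairs of a Mirg and an Rtl1 antisense member. miR-410, miR-434-3p, miR-127 and miR-409-3p had the highest medians with the other members (0.76, 0.74, 0.72 and 0.72). miR-431, miR-539, miR-494 and miR-337-5p had medians below 0 (-0.20, -0.26, -0.19 and -0.51), and miR-431 and miR-539 were correlated with each other at 0.78. The lowest pair was miR-539 and miR-667 (-0.89).

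**Figure D3:**
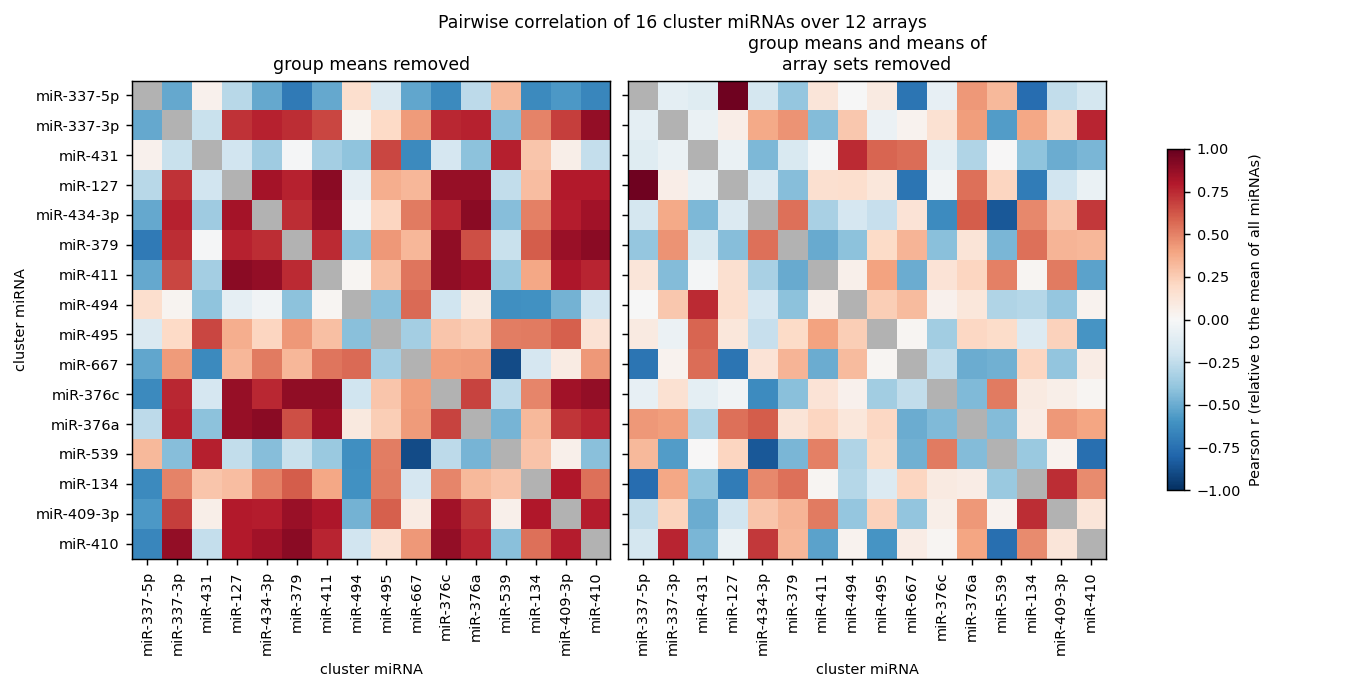
Pearson correlation of each pair of the 16 cluster miRNAs measured on all 12 arrays, in the order of the locus, relative to the mean of all miRNAs, after removal of the group means (left) and of the group means and the means of the 4 sets of consecutive arrays (right). Colour runs from -1 (blue) to 1 (red) and the diagonal is grey. A block of red pairs on the left, with the exception of miR-337-5p, miR-431, miR-494 and miR-539, is not seen on the right, where the median is 0.03.

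Both arms of 1 hairpin can leave the precursor, and for miR-337 and miR-434 both were measured on most arrays. miR-337-3p had Ct 33.2, 31.5, 33.3 and 32.2 in control, 34.4, 35, 32.9 and 32.1 in Tri-DAP, and 35.5, 33.4, 35.3 and 32.4 in MDP. miR-337-5p had Ct 22.4, 34.96, 21.9 and 35.4 in control, 34.8, 34.3, 35.4 and 34.9 in Tri-DAP, and 21.5, 33.4, 35.5 and 34.0 in MDP. So 3 wells of miR-337-5p (control 4, control 10 and MDP 6) were early and 9 were late, with a gap of 11.1 cycles and no well between, while its partner arm was not early on these arrays. The difference between arms (5p minus 3p) ran from -14.0 to 3.47 cycles, with a median of 0.270. A gap above 8 cycles was found in 1 of 37 members with at least 2 measured wells and in 6 of 273 mouse assays. miR-496 was early wherever it was measured, with Ct 23.2 on control 4, 24.8 on control 13, 24.2 on Tri-DAP 14, 24.0 on MDP 6 and 24.4 on MDP 15, and was undetermined on the other 7 arrays. Control 4 and MDP 6 were early for both assays, and Tri-DAP 5, the array numbered between them, for neither. Outside the cluster, miR-708 had such wells on control 7, Tri-DAP 8 and MDP 9 (Ct 22.0, 22.1 and 22.6) and was at 32.8 or later, or undetermined, elsewhere. Whether these wells measured the named miRNA was not tested.

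The arms of miR-434 lay closer. miR-434-3p had Ct 33.3, 30.9, 33.1 and 30.4 in control, 32.4, 32.3, 32.1 and 30.6 in Tri-DAP, and 32.2, 31.3, 33.3 and 31.0 in MDP. miR-434-5p had Ct 34.0, 31.8, 30.4 and 30.5 in control, 31.8, 33.5 and 33.1 on Tri-DAP 8, 11 and 14, and 34.0 and 32.7 on MDP 9 and 15. It was undetermined on Tri-DAP 5, MDP 6 and MDP 12, where its partner was measured. On 9 arrays with both arms the 3p arm was earlier on 7. Over all 9 the difference (5p minus 3p) ran from -2.68 to 2.64 cycles, with a median of 0.844. For miR-409, the 3p arm was measured on 12 arrays and the 5p arm on 5, and on those 5 arrays the 3p arm was earlier by 2.27 to 5.501 cycles.

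**Figure D4:**
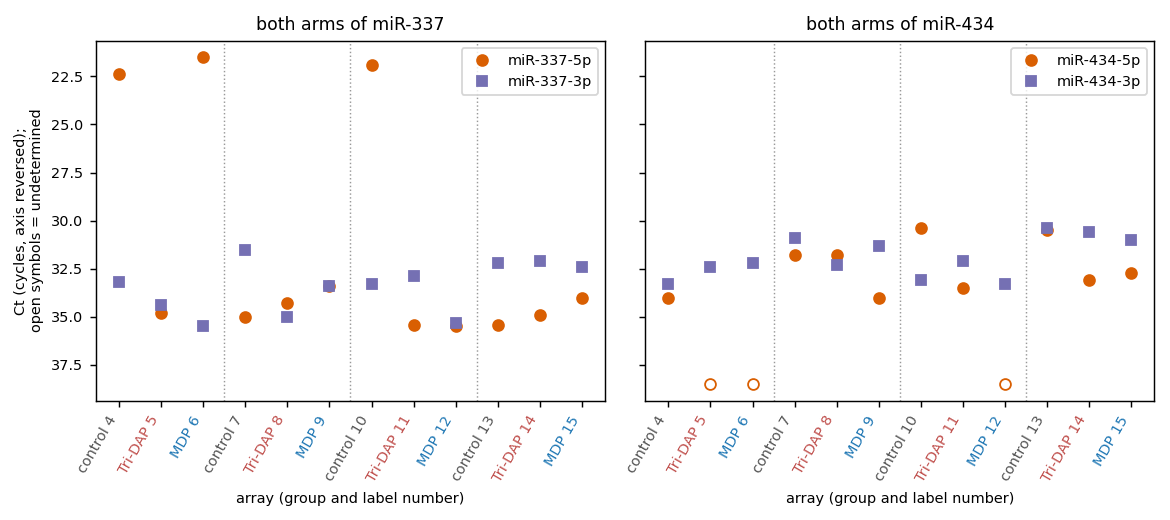
Ct of the 5p arm (circles) and the 3p arm (squares) of miR-337 (left) and miR-434 (right) on the 12 arrays, vertical axis reversed, with open symbols at the bottom for undetermined wells. miR-337-5p lies at 21.5 to 22.4 on control 4, MDP 6 and control 10 and at 33.4 to 35.5 on the other 9 arrays, whereas miR-337-3p lies at 31.5 to 35.5 throughout.

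To ask whether NOD1 or NOD2 stimulation changed the members, the deposited values relative to U6 were compared between groups with limma in 1 fit over all miRNA assays and 12 arrays. The p-values measure the spread between these arrays, which in this fit includes the differences between the sets of consecutive array numbers. An assay was tested with at least 2 measured wells in each group, and called at an unadjusted p below 0.05. After Tri-DAP, 24 members were tested and 0 were called, where 4 of all 237 tested assays were called (1.69%). After MDP, 0 of 27 members were called, with 3 of 244 assays called in all (1.23%). Between MDP and Tri-DAP, 0 of 26 members were called, with 7 of 241 in all (2.9%). No assay of the array passed a Benjamini-Hochberg adjusted p of 0.05 with limma in any comparison, with the lowest adjusted p of a member at 0.998. By the methods' t-test 0 members and 4, 1 and 4 of all assays had an unadjusted p below 0.05. With the sets of consecutive array numbers as a block, 2 members were called after Tri-DAP (miR-337-5p and miR-487b), where 3.81% of all assays were called. In the same fit 2 members were called after MDP (miR-337-3p and miR-543), where 2.47% of all assays were called, and 1 between MDP and Tri-DAP (miR-487b), where 3.36% were called. The members had larger errors than the other miRNAs: the median SE of a log2 difference was 1.05 against 0.781 after Tri-DAP.

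The members' median log2 difference was -0.75 after Tri-DAP, with 21 of 24 (87.5%) below 0, where the median of all tested assays was -0.24 with 178 of 237 (75.1%) below 0. After MDP the median was -0.03 (all assays -0.02), with 15 of 27 below 0. MDP against Tri-DAP gave 0.41 (all assays 0.18), with 19 of 26 above 0. The first and the third comparison share the Tri-DAP arrays, and the first and second share the control arrays. The median after Tri-DAP was -0.52 with the mean of all miRNAs as reference, where the median of all assays was 0.01. It was -1.20 (all assays -0.66) without Tri-DAP 8, the array with the latest U6 (Ct 21.6). It was -0.25 (all assays 0.12) without arrays 13, 14 and 15. Without Tri-DAP 8, miR-434-5p and miR-667 were called after Tri-DAP, where 12 of 232 assays were called in all (5.17%). For MDP against Tri-DAP, miR-376b, miR-382 and miR-667 were then called, where 17 of 233 assays were called in all (7.30%). Differences above 1 log2 unit in either direction were found for 8 members (33.3%) after Tri-DAP, against 19.8% of all assays, and for 6 (22.2%) after MDP, against 16.4%.

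After Tri-DAP, the 5 members of smallest p were miR-337-5p, miR-487b, miR-380-5p, miR-337-3p and miR-495. miR-337-5p differed by -6.32 ± 3.54 (SE, limma, adjusted p = 0.998), with its early wells on 2 of the 4 control arrays. miR-337-3p was at -12.90 ± 1.10 (log2 relative to U6, SD, n = 4) in control and -14.07 ± 0.60 in Tri-DAP, a difference of -1.17 ± 0.86 with overlapping arrays and p = 0.114 by an exact permutation test. miR-495, known to target NOD1 in cardiac fibroblasts, had Ct 30.8, 31.2, 31.4 and 30.2 in control, 32.1, 32.6, 31.2 and 30.6 in Tri-DAP, and 31.4, 33.0, 31.6 and 30.7 in MDP. Its levels relative to U6 overlapped, and it differed by -0.85 ± 0.65 after Tri-DAP (exact permutation p = 0.114) and by -0.75 ± 0.65 after MDP (exact permutation p = 0.229). With 4 arrays per group the smallest p that this two-sided test can give is 0.0286. Like the main fit, it took no account of the sets of consecutive array numbers, so their differences are part of its spread. miR-487b differed by -1.34 ± 0.92 and miR-380-5p by -1.40 ± 0.99, each measured on 2 control and 3 Tri-DAP arrays. miR-487b was the single tested member whose arrays did not overlap between Tri-DAP and control, which was so for 9 of all 237 tested assays (3.8%). With undetermined wells set to Ct 40 both differences changed sign (0.88 and 1.21).

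After MDP, the smallest p belonged to miR-543 of the Mirg group. It was measured on control 7 and 13 (Ct 34.0 and 34.99), Tri-DAP 8, 11 and 14 (34.7, 34.2 and 32.0) and MDP 9 and 15 (32.9 and 31.1), and was undetermined on the other 5 arrays. Both MDP arrays lay above both control arrays relative to U6, where 7 of all 244 tested assays (2.87%) had groups without overlap. The difference was 2.62 ± 1.16 (SE, limma, unadjusted p = 0.0544, adjusted p = 0.9997). With 2 arrays against 2 an exact permutation test cannot give less than 0.333, which is the value it gave. miR-337-3p followed with -1.58 ± 0.86, at -14.49 ± 1.795 in MDP, and the arrays overlapped. miR-495, miR-434-5p and miR-370 came next, with differences of -0.75, -1.46 and -1.06 and with SE of 0.65, 1.42 and 1.15.

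Between MDP and Tri-DAP, miR-487b had the smallest p. Its Ct was 35.1, 34.9 and 34.9 on Tri-DAP 5, 11 and 14 and 34.0, 35.2, 34.7 and 33.0 on MDP 6, 9, 12 and 15. The difference relative to U6 was 1.57 ± 0.77 (SE, limma, unadjusted p = 0.0692, adjusted p = 0.9985). miR-543 was the single member without overlap here, where 9 of all 241 tested assays (3.73%) had none. miR-543 and miR-380-5p differed by 2.03 ± 1.07 and 1.64 ± 0.89, and miR-376b by 2.04 ± 1.51. The difference of miR-543 was -0.63 with undetermined wells at Ct 40. miR-667 had Ct 30.2, 29.3, 30.4 and 29.3 in control, 31.0, 30.6, 29.8 and 30.7 in Tri-DAP, and 30.1, 29.2, 29.3 and 29.4 in MDP. On the Ct scale 3 of 4 MDP arrays were below all Tri-DAP arrays, but relative to U6 the groups overlapped. The difference there was 1.14 ± 0.73 (exact permutation p = 0.229), and miR-667 was not called with the sets as a block. With that block and the mean of all miRNAs it was 0.94 ± 0.24 (SE, limma, unadjusted p = 0.0051, adjusted p = 0.942). With the block and no normalization it was 1.01 ± 0.33 (limma, unadjusted p = 0.017, adjusted p = 0.741). Both fits were chosen after the data were seen, with 5.04% and 6.30% of all assays called. Against control, miR-667 differed by -0.82 ± 0.73 after Tri-DAP and by 0.32 ± 0.73 after MDP, which was -0.01 without control 10.

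**Figure D5:**
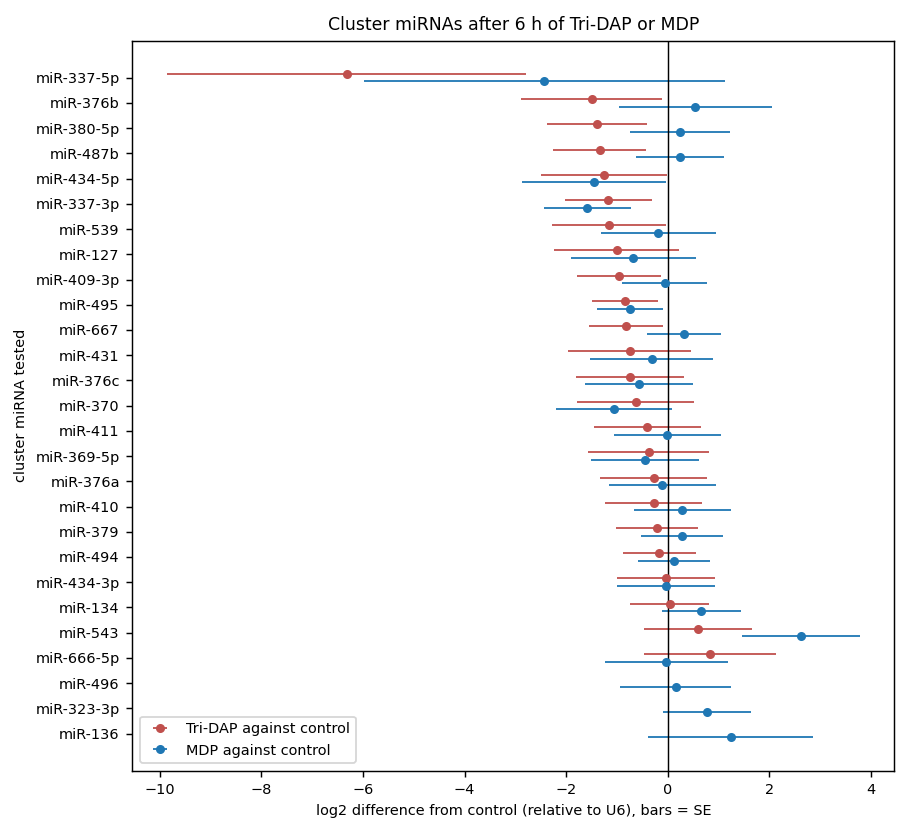
Log2 difference from control (relative to U6, horizontal axis) of each tested cluster miRNA after Tri-DAP (red) and after MDP (blue), with its SE from limma, ordered by the difference after Tri-DAP. Both comparisons share the 4 control arrays. Most red points lie left of 0, from -6.32 to 0.83, and the blue points lie on both sides, from -2.43 to 2.62.

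The comparison lists held 0 called assays in these comparisons by limma. The 9 assays of the miR-17-92 and miR-106b-25 clusters had a median difference of -0.21 after Tri-DAP and -0.09 after MDP, and the 6 tested assays of the Sfmbt2-intron group -0.12 and -0.07. The 5 fibroblast and mural markers had -0.22 and -0.09 with 0 called. Of the marker lists, 1 of 3 neuronal assays was called after Tri-DAP, which was miR-124, singled out after its values were seen.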

How the data were processed

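The authors reverse transcribed RNA with rodent pool A primers, ran 1 TaqMan array per sample and deposited the Ct of each well and a normalized value. In all 384 wells checked per array, the normalized value equalled the well's Ct after subtraction of the array's average over 4 U6 wells, so the deposited log2 scale was used with the sign turned. Ct 40 was taken as undetermined and set missing. 12 further columns that name no sample, and a deposited table of the authors' fold changes and p-values, were not used. All miRNA assays were fitted with limma 3.58.1 in R 4.3.3 (lmFit and eBayes, 1 mean per group, at least 2 measured wells in each group compared), with calls at an unadjusted p below 0.05 and Benjamini-Hochberg adjustment over all tested assays. Single members were also compared by a two-sided exact permutation test. The fit was tested on simulated data. Descriptions were made with Python 3.11.15 and pandas 2.3.3. Members, lists and alternatives were chosen with earlier results of these data known. Named with values were the 5 members of smallest p in each comparison, the 8 of lowest mean Ct and the 3 of largest SD among members measured on all 12 arrays, pairs of arms, the members measured least often, and miR-495, miR-667 and miR-337-3p, which the study lists. Other members and miRNAs were named after their values were seen. Alternatives were other references, other treatment of late wells, other filters, eBayes with trend, the methods' t-test, a block for sets of arrays, and leaving out arrays. PCR precision is limited by late Ct and by the number of arrays.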

Additional observations from a re-analysis of the deposited data

Results flagged for a closer look

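The array also holds assays of the rat sequence for some hairpins of the cluster, which were not counted as members. 3 of them gave a signal, while the plant control assay was undetermined in all 12 wells. The assay rno-miR-673 was measured on all 12 arrays at a median Ct of 35.02 (34.0 to 36.7). The assay rno-miR-381 was measured on all 12 arrays at a median Ct of 32.90 (31.0 to 35.5), whereas the mouse assay of miR-381 was measured on 3 arrays. The assay rno-miR-758 was measured on 6 arrays at a median Ct of 33.51 (30.1 to 35.7). Whether these assays detect the mouse miRNA was not tested. The assays rno-miR-673 and rno-miR-381 were among the other miRNAs measured on all arrays, with which the members were compared. They were also among all assays tested in the fits. Among 56 groups of 4 measured arrays, Dixon's test flagged 0, where chance gives about 1 in 20, or 2.8 groups. This count does not apply to the Ct scale, where miR-337-5p in MDP had 21.5 on MDP 6 and 33.4, 35.5 and 34.0 on MDP 9, 12 and 15. A count of 0 therefore does not mean that no well lay far from the others in Ct.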

How the results depend on the processing

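The labels give the groups no shared replicate numbers and so state no pairing. The paper speaks of independent cell isolations, which may each have given an array to every group, but does not name these arrays. The main fit had no block, so differences between the sets of consecutive numbers were part of its error. A block for the sets of consecutive numbers was fitted as an alternative: same-set arrays correlated at -0.25 to 0.81 over 158 other miRNAs, and 11 of 12 arrays had their best partner in their own set. With the set block 2 of 24 members were called after Tri-DAP (miR-337-5p, miR-487b), against 3.81% of all assays. After MDP it was 2 of 27 (miR-337-3p, miR-543) against 2.47%, and between MDP and Tri-DAP 1 of 25 (miR-487b) against 3.36%. Chosen after seeing the data was the block with the mean of all miRNAs as reference. It called 3 of 24, 4 of 27 and 4 of 25 members, against 5.51%, 4.94% and 5.04% of all assays. These were miR-409-3p, miR-487b and miR-667 after Tri-DAP, and miR-337-3p, miR-369-5p, miR-370 and miR-495 after MDP. Between MDP and Tri-DAP they were miR-370, miR-409-3p, miR-487b and miR-667. miR-370 was measured on 2 arrays per group. With no normalization, also chosen after seeing the data, the block called 3 of 24, 3 of 27 and 3 of 25 members, against 5.93%, 4.53% and 6.30%.

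Undetermined wells at Ct 40 gave 2 calls of 33 members after Tri-DAP (miR-323-3p, miR-329), against 2.95% of all assays. After MDP it was 1 of 33 (miR-434-5p) against 0.746%, and between MDP and Tri-DAP 1 of 31 (miR-323-3p) against 2.25%. After MDP, miR-543 was the 1 call of 24 members with wells above Ct 35 missing, against 0.873% of all assays. It was the 1 call of 27 with the mean of all miRNAs or U6 and snoRNA202 as reference. The same held with only both groups compared, and 2.05% of all assays were called in each. Between MDP and Tri-DAP, miR-667 was the 1 call of 26 members with U6 and snoRNA202 or no normalization (2.90% and 3.32% of all assays). Leaving out single arrays gave 0 to 2 calls after Tri-DAP (control 7, control 13 or MDP 6 left out: miR-337-5p, of 7, 6 and 6 in all; Tri-DAP 8: 2 of 12), 0 to 1 after MDP (Tri-DAP 8 or 11: miR-543, of 7 and 4 in all; MDP 15: miR-337-3p, of 1) and 0 to 3 between MDP and Tri-DAP (Tri-DAP 8: 3 of 17; MDP 12: miR-380-5p and miR-487b, of 7). Without arrays 7, 8 and 9 there was 1 call of 19 members after Tri-DAP (miR-434-5p), against 5.36% of all assays. Between MDP and Tri-DAP it was then 1 of 20 (miR-667) against 6.19%. Without arrays 10, 11 and 12 there was 1 of 26 after MDP (miR-543) against 1.69%. The cause was not tested. In 29 alternatives 0 members had an adjusted p below 0.05 by limma or the methods' t-test. Of 506 values of single members 19 had the opposite sign, 0 of them called. With undetermined wells at Ct 40 these were miR-380-5p (1.21) and miR-487b (0.88) after Tri-DAP and miR-543 (-0.63) between MDP and Tri-DAP. With the set block miR-380-5p was at 0.42 (mean of all miRNAs) and 0.33 (no normalization) after Tri-DAP. Between MDP and Tri-DAP miR-337-3p was at 1.05 with wells above Ct 35 missing, 0.20 without arrays 10, 11 and 12, and -1.01 to 0.30 with single arrays left out. miR-495 there was at -0.10 with the mean of all miRNAs and -0.034 without normalization (with and without the set block), -0.31 without arrays 4, 5 and 6, -0.29 without arrays 13, 14 and 15, and -0.23 to 0.45 with single arrays left out. After MDP miR-667 was at -0.010 to 0.62 with single arrays left out.

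The 40 members measured on at least 1 array became 16 on all 12 arrays and 13 with a limit of Ct 35 on all 12. The median correlation of 0.54 was 0.46 to 0.59 with single arrays left out, 0.33 with the mean of all miRNAs, 0.15 for the 4 members of mean Ct below 30, 0.35 without arrays 10, 11 and 12, and 0.034 with group and set means removed and the mean of all miRNAs as reference. Leaving out single arrays gave medians of -1.20 to -0.38 after Tri-DAP, -0.39 to 0.46 after MDP and -0.07 to 0.95 between MDP and Tri-DAP. Late Ct limits the precision: no copy number or efficiency was known.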
